A study of Mus musculus with 12 samples.

Results

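U90926, Gm1720, 1700003M07Rik, Neat1 and Malat1 are 5 transcripts of bone marrow derived macrophages (BMDMs) that are noncoding or of unclear coding status. They were taken by name out of 54232 Ensembl genes in the table, and all 5 were among the 16281 genes tested. The names were chosen from measured values of the same libraries. U90926 had the largest rise from no stimulation to NBT3L medium, Gm1720 was among the largest rises with NB9464 medium, and 1700003M07Rik was among the largest rises with NB9464 medium and R788. Their comparisons with unstimulated cells, and any other comparison that used a library behind the choice, are therefore given as descriptions, without a test. Those libraries were NS for all 3, and NBT3L TCM for U90926, NB9464 TCM for Gm1720 and NB9464 TCM + R788 for 1700003M07Rik. Why Neat1 and Malat1 were listed beside them was not stated, so whether their tests are free of the choice cannot be told.

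The study asked how macrophages respond to factors released by neuroblastoma cells and what the kinase Syk contributes. BMDMs of wild-type C57BL/6 mice were used on day 5 of culture. The methods give an age of 6 to 8 weeks for mice used as BMDM donors, and the sex of the mice was not given. They then spent 24 h in tumor-conditioned medium (TCM) or without it. The TCM was from mouse neuroblastoma cells, either NB9464, which carry amplified MYCN, or NBT3L, which do not. R788 (fostamatinib), a prodrug whose active form inhibits Syk, was present at 500 nM or absent. The 6 groups were NS (no TCM, no R788), R788, NB9464 TCM, NB9464 TCM + R788, NBT3L TCM and NBT3L TCM + R788, with 2 libraries each. No group carried a deletion, so Syk was targeted by the drug alone. Syk activity was not measured in these libraries, so an effect of R788 here is that of the drug. NB9464 TCM was DMEM without serum that had been kept on the tumor cells for 48 h. The medium of the cells without TCM, the vehicle of R788 and the making of NBT3L TCM were not stated, so a comparison of TCM with no TCM holds any difference in base medium and serum as well.

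The libraries were poly(A)-selected and held between 44977847 and 56449685 counts. Library 8 (R788) showed the fewest genes above 0, 16149, against 17275 to 18343 in the others. All 8 macrophage markers, Adgre1, Csf1r, Cd68, Itgam, Lyz2, Mrc1 and Fcgr1 among them, were detected in every group, with a summed level of 34210 to 48360 CPM (counts scaled to the same total per library). The 10 neuroblastoma markers summed to 0.0800 to 0.921 CPM without TCM and to 1.53 to 2.89 CPM with TCM. Th and Chga were at 0 in all 12 libraries. In bulk RNA, fewer cells with a transcript and less of it per cell cannot be told apart. Nothing in the labels said that the 2 libraries of a group came from separate cultures or mice, so the p-values measure only the spread between these libraries, which may be technical.

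Long noncoding RNAs are transcribed and often spliced and polyadenylated like messenger RNAs but carry no long conserved reading frame. Neat1 is the scaffold of paraspeckles, nuclear bodies built around its long isoform and the proteins SFPQ, NONO and PSPC1. Malat1 is a nuclear RNA that concentrates in nuclear speckles, where splicing factors are stored. The 2 genes are neighbours on 1 chromosome and both RNAs are abundant in most mammalian cells. Of Gm1720 and 1700003M07Rik only the annotation as long intergenic RNAs is used here.

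In GRCm38 (mm10), U90926 (ENSMUSG00000029409) lies on the minus strand at chr5:92209893-92215408. GENCODE lists it as protein coding, whereas RefSeq lists it as a long noncoding RNA. Gm1720 (ENSMUSG00000086860) lies on the plus strand at chrX:166662025-166689812, and 1700003M07Rik (ENSMUSG00000085389) on the plus strand at chr4:129960374-129963657. Neat1 (ENSMUSG00000092274, chr19:5824708-5845478) and Malat1 (ENSMUSG00000092341, chr19:5795690-5802672) are both on the minus strand, 22036 bp apart. Exons of the first 3 genes overlapped no other annotated exon. Neat1 shared bases with 3 short annotated RNAs, and Malat1 with 2, one of them (Gm37376) on the opposite strand. These 5 short genes were at 0 counts in every library.

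RefSeq promoter windows, running from 250 bases before the annotated start to 50 bases after it (GRCm38.p6), were held for 3 of the 5 genes: U90926, Gm1720 and Malat1. They are shown because U90926 and Gm1720 were near 0 without TCM and well above it with TCM, while Malat1 was abundant throughout. Each is written 5′ to 3′ on the strand of its gene, chr5:92215359-92215658 (minus) for U90926, chrX:166661775-166662074 (plus) for Gm1720 and chr19:5802623-5802922 (minus) for Malat1. Capitals mark every match to the motifs named after them.
U90926: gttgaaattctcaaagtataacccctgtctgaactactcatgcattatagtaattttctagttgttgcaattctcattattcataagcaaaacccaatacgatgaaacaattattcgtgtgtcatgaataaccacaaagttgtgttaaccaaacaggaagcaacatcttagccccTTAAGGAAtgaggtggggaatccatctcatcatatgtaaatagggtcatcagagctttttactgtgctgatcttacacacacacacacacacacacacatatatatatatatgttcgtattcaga
Gm1720: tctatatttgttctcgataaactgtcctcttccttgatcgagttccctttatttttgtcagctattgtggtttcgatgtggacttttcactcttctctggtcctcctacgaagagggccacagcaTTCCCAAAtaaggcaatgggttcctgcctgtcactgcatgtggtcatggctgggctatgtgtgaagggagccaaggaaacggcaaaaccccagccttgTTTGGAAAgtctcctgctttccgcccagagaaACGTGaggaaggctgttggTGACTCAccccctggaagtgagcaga
Malat1: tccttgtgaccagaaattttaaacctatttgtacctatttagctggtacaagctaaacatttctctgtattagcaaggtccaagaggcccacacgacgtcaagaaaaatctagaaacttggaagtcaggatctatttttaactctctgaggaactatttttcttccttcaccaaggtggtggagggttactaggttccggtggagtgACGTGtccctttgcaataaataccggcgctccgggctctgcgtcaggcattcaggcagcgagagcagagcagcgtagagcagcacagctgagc

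The windows were searched on both strands for 8 motifs. The AP-1 motif, written TGANTCA, was held by 7.81% of all 32851 windows of this length. The C/EBP motif (TTNNGNAA) was held by 40.7%, the interferon response motif (GAAANNGAA) by 8.56% and the NF-kB consensus by 8.46%. The cyclic AMP response motif (TGACGTCA) was held by 1.79% and the ATF4/CHOP motif (TGATGNAA) by 3.97%. The core of HIF sites (ACGTG) was held by 19.6%, and the letters of the core promoter box TATAAA were held by 13.6%. Matches of different motifs may overlap, but none did in these windows. The U90926 window held 1 match, a C/EBP pattern at bases 176 to 183. The Gm1720 window held 2 C/EBP patterns, at bases 126 to 133 and 224 to 231, a HIF pattern at bases 256 to 260 and an AP-1 pattern at bases 275 to 281. The Malat1 window held a HIF pattern at bases 208 to 212. A match is a match of letters, and no binding was measured.

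The 3′ ends bear on what poly(A) selection can recover. The last 30 bases of annotated GENCODE M21 transcripts are given below in lower case, with the polyadenylation signal AATAAA in capitals where present.
Gm1720-201: cctcaacctataAATAAAccctgcctccct
Neat1-202 (short isoform): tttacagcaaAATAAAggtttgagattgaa
Neat1-201 (long isoform): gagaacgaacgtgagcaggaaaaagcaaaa
Malat1-201: ttttatgaAATAAAaactaaatatctctca
The signal stood within the last 40 bases of the short Neat1 isoform (3004 bases), of Malat1-201 (6983 bases), of Gm1720-201 (1503 bases) and of both U90926 transcripts annotated as coding. It was not found in that window for the long Neat1 isoform (20771 bases) or for either 1700003M07Rik transcript. Of all annotated lincRNA transcripts, 29.9% held it there. As background, the long Neat1 isoform and mature Malat1 are not polyadenylated in the usual way, their ends being cut by RNase P. The longest run of A in Malat1-201 was 12 bases, beginning at base 6674. Counts were per gene, so the Neat1 isoforms could not be told apart, and the level of these 2 RNAs here is that recovered by poly(A) selection.

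**Figure D1:**
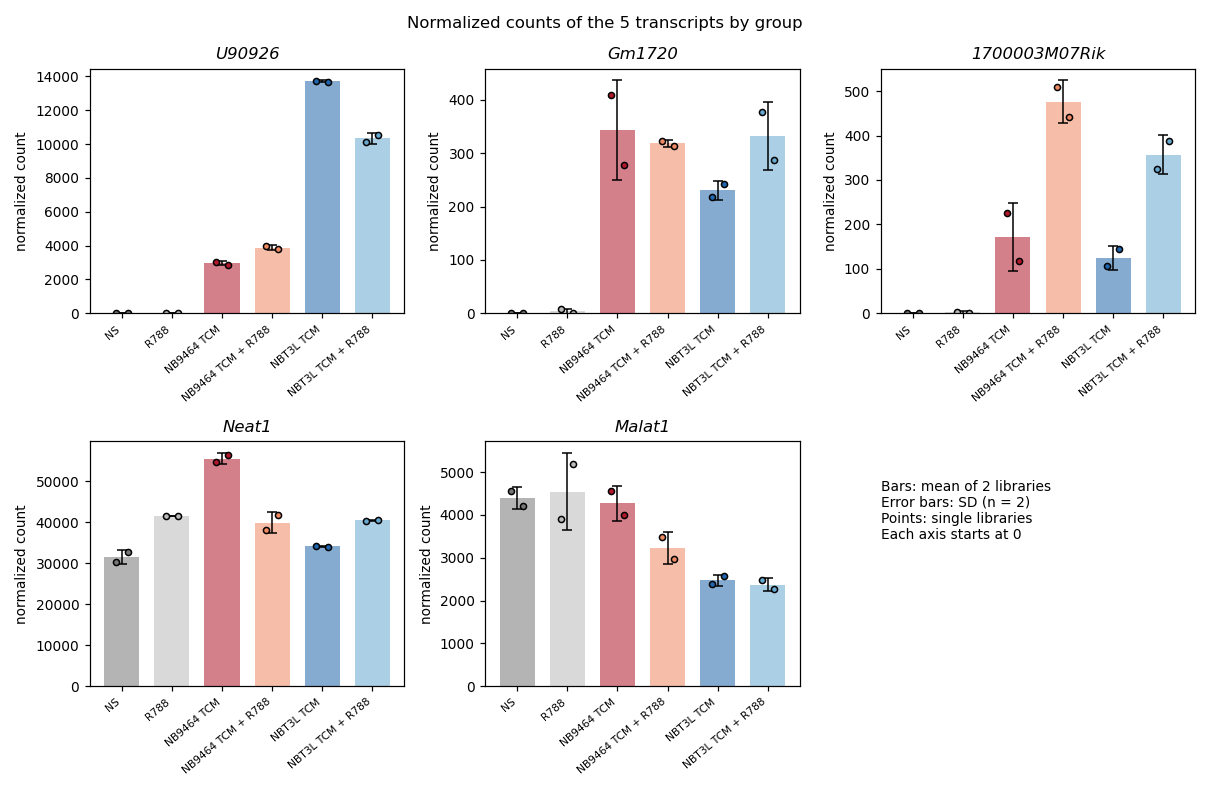
Normalized counts (counts divided by the DESeq2 size factor of the library) of the 5 transcripts in the 6 groups; bars are means, error bars the SD and points the 2 libraries of each group. U90926, Gm1720 and 1700003M07Rik were near 0 in NS and R788, Neat1 was highest in NB9464 TCM, and Malat1 was lowest in the 2 NBT3L TCM groups.

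U90926 went from almost nothing to one of the more abundant transcripts of the cell. It had 0 and 6 raw counts in the NS libraries and 0 and 0 in the R788 libraries. With NB9464 TCM the libraries held 3169 and 3074 raw counts, and with NBT3L TCM 11112 and 12643. With R788 added, the NB9464 TCM libraries held 3987 and 3412 and the NBT3L TCM libraries 9538 and 10493. No TCM library came near the libraries without TCM, and the 2 media did not overlap.

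As normalized counts, U90926 was 2.85 ± 4.02 (SD, n = 2) in NS. It was 13720 ± 51.0 in NBT3L TCM and 2943 ± 124 in NB9464 TCM. The fitted log2 fold change against NS was 10.02 ± 0.59 (SE) for NB9464 TCM and 12.24 ± 0.59 for NBT3L TCM. Without NS library 1, which had 0 counts, these were 9.01 and 11.23, and without NS library 2, which had 6, they were 14.05 and 16.27, so their size rests on very few NS counts. Per length, as TPM (counts divided by gene length, scaled to the same sum in each library), U90926 stood at 832 ± 3.74 in NBT3L TCM. That was rank 129 of 19955 genes above 0, and no gene annotated as long noncoding was higher. In NB9464 TCM it was at 196.7 ± 15.4 TPM, rank 671, and 1 long noncoding gene was higher.

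The same step was tested in libraries that had not been used to choose the gene, those with R788. U90926 passed the count filter through TCM libraries alone, so the p-values against R788 add no support beyond the counts. Against a floor of 3 counts per R788 library, U90926 was at least 1514-fold higher in NB9464 TCM + R788 (DESeq2 adjusted p = 9.20e-23) and at least 4033-fold higher in NBT3L TCM + R788 (DESeq2 adjusted p = 2.92e-27). Between the media, the log2 difference of U90926 in NB9464 TCM from NBT3L TCM was −2.22 ± 0.073, a description since the NBT3L TCM libraries chose the gene. With R788 in both media U90926 was lower in NB9464 TCM by −1.41 ± 0.073 (DESeq2 adjusted p = 2.37e-80).

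R788 raised U90926 in NB9464 TCM, and in NBT3L TCM the libraries with R788 stood below those without it. In NB9464 TCM U90926 rose from 3031 and 2856 normalized counts to 3966 and 3790. That was a log2 fold change of 0.40 ± 0.075 (DESeq2 adjusted p = 2.24e-06, edgeR adjusted p = 0.0151). In NBT3L TCM it stood at 13750 and 13680 without and at 10110 and 10540 with R788, a log2 fold change of −0.41 ± 0.072. No test is given for this value, because the baseline libraries were those with the high level that chose the gene. The 4 libraries of each medium did not overlap between no drug and drug. The R788 effect in NB9464 TCM minus that in NBT3L TCM was 0.81 ± 0.10 on the log2 scale, also without a test. The order of levels was thus NBT3L TCM, NBT3L TCM + R788, NB9464 TCM + R788, NB9464 TCM, and then NS and R788. No 2 of the 4 TCM groups overlapped. Of the neighbouring pairs among them, NBT3L TCM + R788 against NB9464 TCM + R788 and NB9464 TCM + R788 against NB9464 TCM differed by the test.

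Some neuroblastoma markers had low counts with TCM. Hand2 was at 0 counts in the 4 libraries without TCM and at 4 to 48 in the 8 with TCM. It was at 5 and 7 in NBT3L TCM, where U90926 was highest, and at 48 and 27 in NB9464 TCM + R788. Mycn was at 0 without TCM, at 7 to 37 in the 4 libraries with NB9464 TCM, at 8 and 12 in NBT3L TCM and at 0 in NBT3L TCM + R788. Gata3 was present without TCM too, at 2 to 52 counts, and at 19 to 70 with TCM. Dbh was at 0 without TCM and with NB9464 TCM, and at 12 to 20 in the 4 NBT3L TCM libraries. Th was at 0 in all 4 libraries with NB9464 TCM, in which U90926 had at least 3074 counts. The part of tumor cell RNA in the levels of U90926, Gm1720 and 1700003M07Rik was not tested.

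Gm1720 was also present only with TCM, apart from 8 counts in R788 library 7, and with R788 the 2 media were not shown to differ in it. It was at 0 counts in both NS libraries and at 8 and 0 in R788. In NB9464 TCM it had 428 and 299 counts and in NBT3L TCM 176 and 224. With R788, these became 325 and 283 in NB9464 TCM and 356 and 286 in NBT3L TCM. All 8 TCM libraries were far above the 4 libraries without TCM, and 3 of the 4 TCM groups overlapped one another.

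As normalized counts the level of Gm1720 was 344 ± 93.1 in NB9464 TCM, 319 ± 6.31 in NB9464 TCM + R788, 230.1 ± 17.4 in NBT3L TCM and 332 ± 63.7 in NBT3L TCM + R788. Against a floor of 3 counts per NS library, it was at least 121-fold higher in NB9464 TCM and at least 81.3-fold higher in NBT3L TCM. Against R788 libraries, which its choice had not used, the log2 fold change was 6.53 ± 0.60 with NB9464 TCM (DESeq2 adjusted p = 5.05e-26) and 6.60 ± 0.60 with NBT3L TCM (DESeq2 adjusted p = 1.56e-26). Without R788 library 7, which held the 8 counts, these were 11.08 and 11.14, so their size rests on that library. Gm1720 passed the count filter through TCM libraries alone, so the p-values above add no support beyond the counts.

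No effect of R788 on Gm1720 was detected in NBT3L TCM, with a log2 fold change of 0.53 (95% interval −0.13 to 1.19; DESeq2 adjusted p = 0.336). As descriptions, it was −0.11 (−0.76 to 0.54) in NB9464 TCM, and the media differed by 0.58 (−0.08 to 1.23) without R788. With R788 in both, the media were not shown to differ, at −0.06 (−0.71 to 0.59; DESeq2 adjusted p = 0.967). Per length Gm1720 stood at 7.43 to 12.3 TPM in the 4 TCM groups, ranks 6756 to 7838.

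1700003M07Rik was also near 0 without TCM, and R788 raised it in NBT3L TCM. Its higher level with R788 in NB9464 TCM is part of how it was chosen and is a description. It had 0 counts in both NS libraries and 4 and 0 in R788. In NB9464 TCM it had 235 and 127 counts, and 513 and 398 with R788. In NBT3L TCM it had 85 and 133 counts, and 307 and 386 with R788. Within each medium the libraries with R788 were all above those without it.

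In normalized counts, 1700003M07Rik went from 171 ± 75.5 to 476 ± 48.2 with R788 in NB9464 TCM. In NBT3L TCM it went from 125 ± 27.4 to 357 ± 44.1. The log2 fold change was 1.52 ± 0.37 in NBT3L TCM (DESeq2 adjusted p = 7.73e-04, edgeR adjusted p = 0.0157). Without NBT3L TCM + R788 library 12 it was 1.39 and no longer called (DESeq2 adjusted p = 0.0533). The value in NB9464 TCM was 1.48 ± 0.37, with no test, and 1.08 without NB9464 TCM library 4. The media were not shown to differ without R788, with a log2 difference of 0.46 (95% interval −0.28 to 1.20; DESeq2 adjusted p = 0.528). With R788 the difference was 0.42 (−0.30 to 1.13), as a description.

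Against the floor in NS, 1700003M07Rik was at least 60.5-fold higher in NB9464 TCM and at least 44.0-fold higher in NBT3L TCM, and at least 168-fold and 126-fold higher with R788. In NBT3L TCM + R788 against R788 the log2 fold change was 7.70 ± 0.80 (DESeq2 adjusted p = 1.55e-20), and 11.24 without R788 library 7, which held the 4 counts. 1700003M07Rik passed the count filter through TCM libraries alone, so this p-value adds no support beyond the counts. Its rank by TPM moved from 7166 to 4100 with R788 in NB9464 TCM, and in NBT3L TCM from 8023 to 4962.

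Without TCM, these 3 transcripts gave too few counts to measure an effect of R788. U90926 had counts in NS library 2 alone, 6 in number, and Gm1720 in R788 library 7 alone, 8 in number. 1700003M07Rik had 4 counts in R788 and 0 in NS. The groups overlap at 0, and no fold or test is given for R788 there.

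Neat1 was abundant in every group, and R788 brought it to a like level from different starting points. The NS libraries had 30280 and 32770 normalized counts, the NB9464 TCM libraries 54550 and 56430 and the NBT3L TCM libraries 34180 and 33980. With R788 the libraries had 41460 and 41500 without TCM, 40260 and 40530 in NBT3L TCM, and 38080 and 41630 in NB9464 TCM. Without the drug the 3 media did not overlap, whereas the 6 libraries with R788 lay within 38080 to 41630.

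R788 raised Neat1 without TCM by a log2 fold change of 0.40 ± 0.055 (DESeq2 adjusted p = 1.05e-11). It raised Neat1 in NBT3L TCM by 0.25 ± 0.055 (DESeq2 adjusted p = 1.45e-04). In NB9464 TCM it lowered Neat1, with a log2 fold change of −0.48 ± 0.055 (DESeq2 adjusted p = 2.01e-16). In each medium all libraries with R788 lay on 1 side of those without it.

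The effect of R788 on Neat1 in NB9464 TCM differed from that without TCM by −0.87 ± 0.077 (DESeq2 adjusted p = 6.86e-27). It differed from that in NBT3L TCM by −0.72 ± 0.077 (DESeq2 adjusted p = 5.54e-17, edgeR adjusted p = 1.82e-04). Between NBT3L TCM and no TCM the difference was −0.15 (95% interval −0.30 to 0.00; DESeq2 adjusted p = 0.212).

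The media differed in Neat1 only in the absence of the drug, as far as these tests show. NB9464 TCM exceeded NBT3L TCM by 0.70 ± 0.055 (DESeq2 adjusted p = 3.53e-35). With R788 in both, the difference was −0.02 (−0.13 to 0.09; DESeq2 adjusted p = 0.923). Against R788 alone, it was −0.06 (−0.17 to 0.05; DESeq2 adjusted p = 0.441) for NB9464 TCM + R788 and −0.04 (−0.15 to 0.07; DESeq2 adjusted p = 0.625) for NBT3L TCM + R788. Scaling by total counts turned these last 2 values into calls, −0.27 (DESeq2 adjusted p = 4.28e-06) and −0.32 (DESeq2 adjusted p = 3.46e-08), while it shifted the median of all genes by −0.20 and −0.28. Relative to that shift Neat1 stood at −0.07 and −0.04.

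As a description, Neat1 against NS was 0.82 ± 0.055 higher on the log2 scale in NB9464 TCM and 0.11 ± 0.055 higher in NBT3L TCM. The latter turned to −0.12 under total-count scaling, which shifted the median of all genes by −0.23. The share of counts from mitochondrial genes was also highest in the 2 NB9464 TCM libraries, 0.884% and 0.829%, and 0.621% to 0.737% in the other 10. The part of this in the Neat1 values was not tested. By TPM Neat1 stood between 79.6 in NBT3L TCM and 142.7 in NB9464 TCM and was rank 3 to 5 among long noncoding genes in all groups.

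Malat1 was lower with NBT3L TCM, with or without the drug. It had 4569 and 4213 normalized counts in NS, 3907 and 5181 in R788, and 4553 and 3987 in NB9464 TCM. NBT3L TCM libraries had 2383 and 2569, and 2480 and 2261 with R788. NB9464 TCM + R788 lay between, at 3485 and 2971. NS, R788 and NB9464 TCM overlapped, and the 2 NBT3L TCM groups overlapped.

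In the tests, Malat1 was higher in NB9464 TCM than in NBT3L TCM by 0.79 ± 0.13 on the log2 scale (DESeq2 adjusted p = 1.73e-08). With R788 in both, the difference was 0.45 ± 0.13 (DESeq2 adjusted p = 0.00624), and it was no longer called without NB9464 TCM + R788 library 9 (0.33, DESeq2 adjusted p = 0.220) or NBT3L TCM + R788 library 12 (0.38, DESeq2 adjusted p = 0.152). Against R788 alone, Malat1 was lower by a log2 fold change of −0.94 ± 0.13 in NBT3L TCM + R788 (DESeq2 adjusted p = 5.66e-13). In NB9464 TCM + R788 it was lower by −0.49 ± 0.12 (DESeq2 adjusted p = 3.18e-04), a call lost without R788 library 8 (−0.28, DESeq2 adjusted p = 0.0527). Against NS, as a description, it stood at −0.04 in NB9464 TCM and −0.83 in NBT3L TCM.

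R788 lowered Malat1 in NB9464 TCM by a log2 fold change of −0.40 ± 0.12 (DESeq2 adjusted p = 0.00976). This was not called without NB9464 TCM library 3 (−0.30, DESeq2 adjusted p = 0.202) or without NB9464 TCM + R788 library 10 (−0.29, DESeq2 adjusted p = 0.221). No change was called without TCM (0.05, 95% interval −0.19 to 0.29) or in NBT3L TCM (−0.06, −0.31 to 0.18). The difference of the R788 effect between NB9464 TCM and no TCM, −0.45 (−0.80 to −0.11), missed the threshold (DESeq2 adjusted p = 0.0598). It passed in 3 fits that left out 1 library, at −0.55 without NB9464 TCM library 4 (DESeq2 adjusted p = 0.0366), −0.64 without R788 library 7 (DESeq2 adjusted p = 3.42e-04) and −0.57 without NB9464 TCM + R788 library 9 (DESeq2 adjusted p = 0.0327). The RNA Rn7sk, which has no poly(A) tail, had 132 counts in R788 library 8 and 152 in NB9464 TCM + R788 library 9, against 17 to 62 in the other 10. Those 2 libraries were the higher of their group for Malat1, and the part of poly(A) selection in this was not tested.

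**Figure D2:**
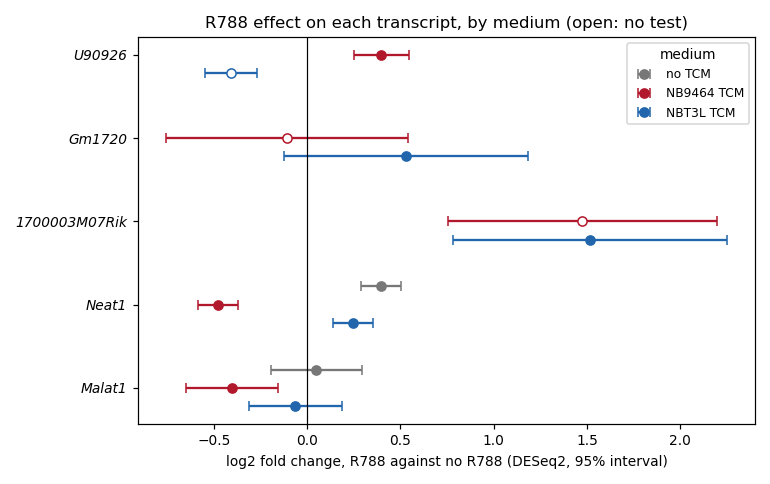
Log2 fold change of R788 against no R788 (x axis) for each transcript (y axis) in each medium, with the 95% interval of the DESeq2 fit as the bar. U90926 is at 0.40 in NB9464 TCM and −0.41 in NBT3L TCM, 1700003M07Rik at 1.48 and 1.52, and Neat1 at −0.48 in NB9464 TCM but above 0 in the other media; the first 3 transcripts have too few counts without TCM to be drawn there. Open symbols are values without a test, since libraries behind the choice of the gene enter them.

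Neat1 and Malat1 did not move as 1 unit although they are neighbours. The number of Neat1 counts per Malat1 count was 6.63 and 7.78 in NS and 11.98 and 14.15 in NB9464 TCM. It was 14.4 and 13.2 in NBT3L TCM and 16.2 and 17.9 in NBT3L TCM + R788. The ratio was thus higher in every TCM library than in NS, through more Neat1 in NB9464 TCM and less Malat1 in NBT3L TCM. In R788 it was 10.6 and 8.01, and in NB9464 TCM + R788 10.9 and 14.01. Per length, Neat1 was at 96.6 ± 3.26 TPM and Malat1 at 40.1 ± 3.18 TPM in NS.

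Read against all genes, the calls of the 5 transcripts were as follows. For U90926, Gm1720 and 1700003M07Rik, only comparisons free of the libraries behind their choice were counted. For Neat1 and Malat1 such libraries are not known, so their calls may not be independent of the choice. R788 against NS called 1 of the 2 tested, Neat1, where 26.6% of all 16281 genes were called. In NB9464 TCM, R788 called 3 of the 3 tested, where 14.5% of all genes were called, and in NBT3L TCM 2 of 4, where 12.6% were. NB9464 TCM + R788 against R788 called 3 of 4 (40.4% of all genes), and NBT3L TCM + R788 against R788 called 4 of 5 (41.4%). Among these were U90926, Gm1720 and, with NBT3L TCM, 1700003M07Rik. Those genes passed the count filter through TCM libraries alone, so their calls here add no support beyond the counts. NB9464 TCM against NBT3L TCM called 2 of 3 (9.40%), and 2 of 4 with R788 in both (9.62%). For the differences of the R788 effect between media, Neat1 and Malat1 alone were tested. Between NB9464 TCM and no TCM, 1 of 2 was called, Neat1 (12.5% of all genes). Between NBT3L TCM and no TCM it was 0 of 2 by DESeq2 (10.1% of all genes), with 0 at an unadjusted p under 0.05 and 0 by edgeR. Between NB9464 TCM and NBT3L TCM it was 1 of 2, Neat1, where 0.706% of all genes, 115 in number, were called. With 5 members chosen by name, these shares are set side by side only.

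The tested long noncoding genes numbered 1571, with a median mean count of 16.7 against 854 for all other genes. Against NS, 140 were called higher and 57 lower with NB9464 TCM, and 113 and 63 with NBT3L TCM. R788 called 15 higher and 39 lower in NB9464 TCM, and 15 and 15 in NBT3L TCM. These were 3.44% and 1.91% of long noncoding genes, where 15.7% and 13.7% of other genes were called. NB9464 TCM against NBT3L TCM called 24 higher and 10 lower, 2.16% of long noncoding genes, where 10.2% of other genes were called. The share called against NS was 12.5% of long noncoding and 36.4% of other genes with NB9464 TCM, and 11.2% and 37.9% with NBT3L TCM, at far lower counts of the long noncoding genes.

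The genes around U90926 are shown to set its rise beside its surroundings. Of 11 tested genes within 200 kb, 2 were called higher and 1 lower with NB9464 TCM against NS, and 4 were called higher with NBT3L TCM. The background was 34.1% of all genes called with NB9464 TCM (17.2% higher, 16.9% lower) and 35.3% with NBT3L TCM (18.0% higher, 17.3% lower). Uso1, a vesicle tethering factor 7095 bp away, rose by 0.73 and 0.86 on the log2 scale. Ppef2, a protein phosphatase gene 11271 bp away, rose by 3.47 with NBT3L TCM from a low level. Without TCM it reached 10 counts only in NS library 2, at 16. It thus needed TCM libraries to pass the count filter, and its call adds little beyond the counts. Naaa, which encodes a lysosomal amidase, rose by 0.71 with NBT3L TCM, and Sdad1 by 0.36 and 0.54. These changes were far smaller than the fitted 10.02 and 12.24 of U90926, which was itself chosen for its large rise.

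Cxcl10, a chemokine gene 131230 bp from U90926, had another pattern. It fell with R788 in all 3 media, with log2 fold changes of −2.09 without TCM, −2.10 in NBT3L TCM and −2.02 in NB9464 TCM. It was lower with NB9464 TCM than in NS (−1.20) and stood at 0.03 with NBT3L TCM. U90926 in contrast rose with R788 in NB9464 TCM, while in NBT3L TCM it too stood lower with R788 (−0.41, a description). Like U90926, Cxcl10 was lower with NB9464 TCM than with NBT3L TCM (−1.23, DESeq2 adjusted p = 2.32e-04). In that comparison 3 of the 11 tested neighbours were lower and 0 higher, where 5.72% and 3.69% of all genes were.

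**Figure D3:**
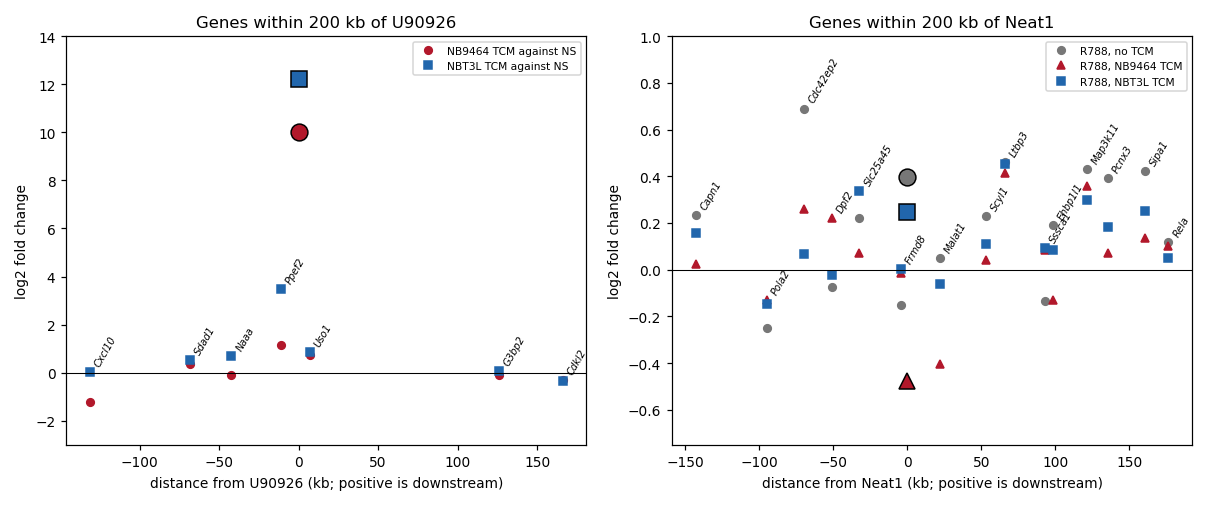
Log2 fold change (y axis) of tested genes within 200 kb of U90926 (left, each TCM against NS) and of Neat1 (right, R788 against no R788 in each medium), by distance in kb (x axis), for genes with a mean of at least 100 normalized counts or a call in any comparison; large outlined symbols are U90926 and Neat1. U90926 stands at 10.02 and 12.24 while its highest neighbour, Ppef2, stands at 3.47, and in NB9464 TCM Neat1 and Malat1 are the lowest points of the right panel at −0.48 and −0.40.

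Gm1720 had only 2 tested genes within 200 kb. Rab9, a small GTPase of endosome transport, was called lower with NB9464 TCM (−0.33) and higher with R788 in that medium (0.39), and Tceanc was not called. Near 1700003M07Rik, 4 of 6 tested genes were called higher with NB9464 TCM and 2 with NBT3L TCM, where 17.2% and 18.0% of all genes were. Adgrb2 was among those called with either medium, and Spocd1 among those called with NB9464 TCM. Both passed the count filter through TCM libraries alone, so their calls add no support beyond the counts. Adgrb2, an adhesion receptor gene 21213 bp away, had 0 counts in both NS libraries, 62 and 6 in NB9464 TCM and 11 and 6 in NBT3L TCM. Against the floor of 3 counts per NS library it was at least 11.5-fold and 3.55-fold higher. Spocd1, 3259 bp away, had 10 and 14 counts in NB9464 TCM and was at most 2 in NS. With R788, Adgrb2 stood at 0.71 in NB9464 TCM and 1.43 in NBT3L TCM and was not called in either. Spocd1 had 44 and 33 counts in NB9464 TCM + R788, 6 and 2 in NBT3L TCM and 24 and 24 in NBT3L TCM + R788. Like 1700003M07Rik it was thus higher with R788 in both media, by 1.83 and 2.39 on the log2 scale. These 2 values are at low counts and had no adjusted p.

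Around Neat1, 9 of 19 tested genes, Malat1 among the 19, were called higher with R788 against NS and 1 lower, where 11.6% of all genes were called higher and 15.0% lower. Cdc42ep2, a CDC42 effector, rose by 0.69, Map3k11, a kinase of the JNK pathway, by 0.43, and Sipa1, a Rap GTPase activator, by 0.42. Frmd8, the nearest gene at 4224 bp, stood at −0.15 and was not called. In NB9464 TCM, R788 called 2 of the 19 higher, Map3k11 (0.36) and the matrix protein gene Ltbp3 (0.41), and 1 lower, which was Malat1. Neat1 fell there. In NBT3L TCM, 4 of 19 were called higher: Slc25a45 (0.34), Map3k11 (0.30), Sipa1 (0.25) and Ltbp3 (0.45). The background for R788 was 5.79% higher and 8.70% lower in NB9464 TCM, and 5.33% higher and 7.24% lower in NBT3L TCM.

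The mRNAs of proteins of paraspeckles, the bodies that Neat1 scaffolds, fell or did not pass the test in most comparisons. Of 20 listed and tested, 8 were lower and 0 higher with NB9464 TCM against NS, and 9 lower and 0 higher with NBT3L TCM. Of all genes, 16.9% were called lower and 17.2% higher with NB9464 TCM, and 17.3% and 18.0% with NBT3L TCM. The medians were −0.19 and −0.21, against 0.02 and 0.00 for all genes. Nono fell by 0.46 on the log2 scale with NB9464 TCM, where Neat1 was highest, and Sfpq by 0.53 with NBT3L TCM. With R788 against NS, 6 were lower (15.0% of all genes), while Neat1 rose.

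In NB9464 TCM, R788 lowered 4 of the 20 paraspeckle genes, among them Sfpq (−0.29), Tardbp (−0.29) and Hnrnpa1 (−0.26), where 8.70% of all genes were lower, and Neat1 fell too. In NBT3L TCM 4 were lower (7.24% of all genes) and 1 higher, Hnrnpul1 (0.20; 5.33% of all genes). NB9464 TCM exceeded NBT3L TCM for Taf15 (0.36) and Hnrnpr (0.29), 2 of the 20, where 3.69% of all genes were called higher and 5.72% lower. None of the 20 was called in the direction given as 0 by edgeR either, and 0 had an unadjusted p under 0.05 in that direction against NS.

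The mRNAs of nuclear speckle proteins, which share that body with Malat1, and of other splicing factors numbered 22. R788 lowered 10 and raised 0 in NB9464 TCM by DESeq2, with 0 higher at an unadjusted p under 0.05 and 0 by edgeR. Of all genes, 8.70% were called lower and 5.79% higher there. Malat1 and Neat1 fell in that comparison as well. Among the 10 were the SR proteins Srsf7 (−0.40), Srsf2 (−0.33) and Srsf10 (−0.31) and the splicing kinase Clk4 (−0.35). The median of the list was −0.20. In NBT3L TCM, R788 called 1, Srsf5 (0.13), and 0 lower, with 3 lower at an unadjusted p under 0.05 and 0 by edgeR. There 5.33% of all genes were called higher and 7.24% lower. NB9464 TCM exceeded NBT3L TCM for 6 of 22 (3.69% of all genes), including Clk4 (0.60), Clk1 (0.28) and Srrm2 (0.28). By DESeq2 0 were lower (5.72% of all genes), with 1 lower at an unadjusted p under 0.05 and 0 by edgeR. Without TCM, R788 called 6 higher and 6 lower, where 11.6% and 15.0% of all genes were. Against NS, 3 were higher and 5 lower with NB9464 TCM (17.2% and 16.9% of all genes), and 2 and 7 with NBT3L TCM (18.0% and 17.3%).

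Other noncoding RNAs described in macrophages or immune cells were tested for 29 of 38 names. With NB9464 TCM 10 were higher than in NS and 2 lower, where 17.2% and 16.9% of all genes were. With NBT3L TCM it was 8 and 2, where 18.0% and 17.3% of all genes were. Mir22hg, the host of miR-22, rose by 1.21 and 1.04, and AW112010, an interferon-inducible transcript, by 1.58 and 0.72. Mir155hg, the host of miR-155, rose by 3.47 and 2.35 from a low level. R788 lowered 7 and raised 1 in NB9464 TCM, where it lowered 8.70% and raised 5.79% of all genes. Mir17hg, which hosts the miR-17 to miR-92 cluster, fell there by 1.01, Mir22hg by 0.66 and Firre by 0.48, whereas AW112010 rose by 0.62.

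In NBT3L TCM R788 lowered 2 of the 29, Ptgs2os2 (−1.35) and 9930111J21Rik1 (−0.88), where it lowered 7.24% of all genes. It raised 0 by DESeq2 (5.33% of all genes), with 0 at an unadjusted p under 0.05 and 0 by edgeR. Without TCM it raised 4 and lowered 3, where it raised 11.6% and lowered 15.0% of all genes. Firre (0.71) and Bvht (1.08) rose and AW112010 fell (−0.71). NB9464 TCM exceeded NBT3L TCM for 4 and was lower for 1, Bvht (−0.52), where 3.69% of all genes were higher and 5.72% lower. Like Neat1, Firre was higher with NB9464 TCM (0.61 against NS), higher with R788 alone and lower with R788 in NB9464 TCM.

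Host genes of small nucleolar RNAs were tested for 15 of 21 names. Against NS, 6 were higher with NB9464 TCM and 4 with NBT3L TCM, and 0 were lower, also by edgeR and at an unadjusted p under 0.05. Of all genes, 17.2% and 18.0% were called higher and 16.9% and 17.3% lower. Snhg11 rose by 2.36 and 2.50 and Gas5 by 0.40 and 0.28. In NB9464 TCM R788 lowered 3 of the 15, Snhg17 (−0.67), Snhg5 (−0.54) and Zfas1 (−0.48), where 8.70% of all genes were lower. In NBT3L TCM it called 0 by DESeq2 (12.6% of all genes), with 3 lower at an unadjusted p under 0.05 and 0 by edgeR. Without TCM it raised 3 and lowered 2, Snhg1 (−0.77) and Snhg5 (−0.50), where it raised 11.6% and lowered 15.0% of all genes. NB9464 TCM exceeded NBT3L TCM for 1 of the 15, Snhg17 (0.41), where 3.69% of all genes were higher.

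**Figure D4:**
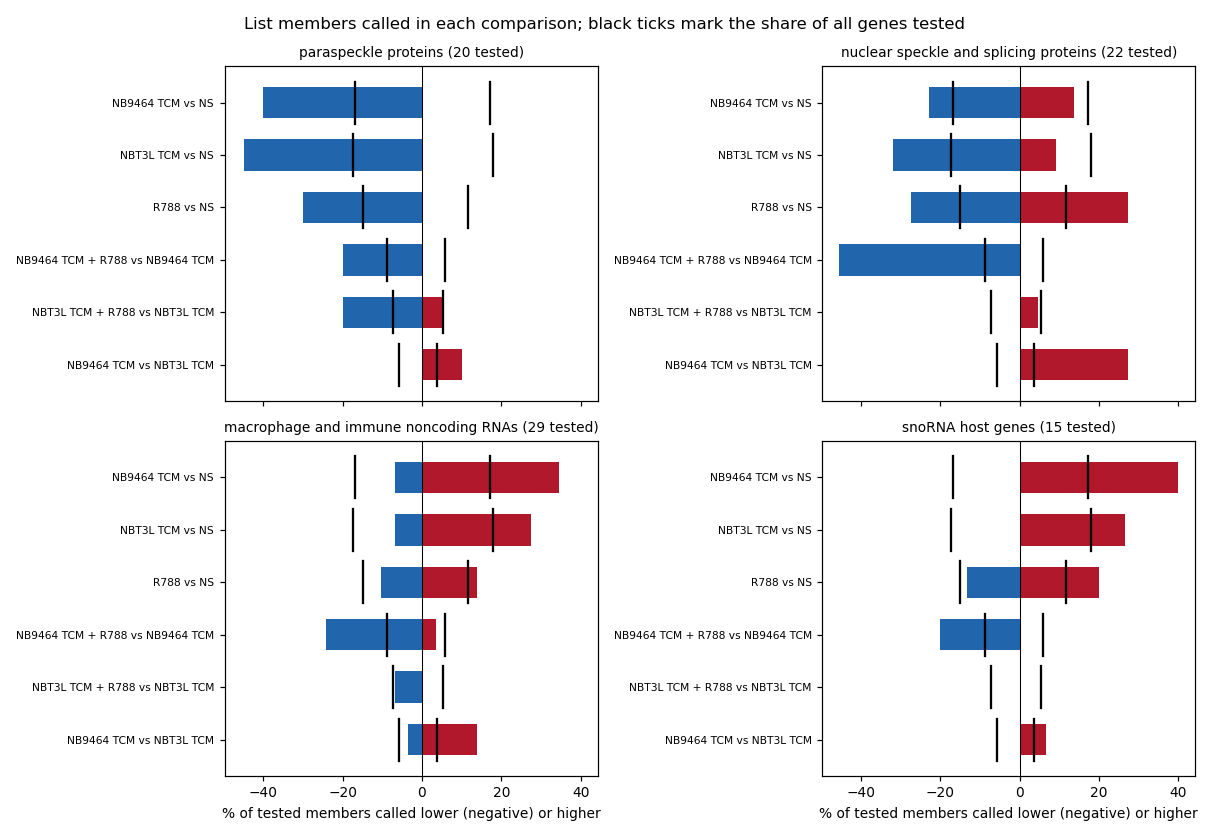
Share of tested members of 4 gene lists called higher (red, right) or lower (blue, left, drawn negative) in 6 comparisons, in percent (x axis); black ticks mark the share of all 16281 genes called in that direction. Paraspeckle genes were called lower in 8 of 20 with NB9464 TCM against NS, and speckle and splicing genes in 10 of 22 with R788 in NB9464 TCM.

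The genes most like each transcript over the 6 groups were found as those with the smallest root mean square difference of centred log2(normalized count + 1) group means, among 10710 genes. For U90926 they were Draxin (1.32), the cytokine genes Il12a (1.49) and Csf3 (1.51), the NAD glycohydrolase Cd38 (1.56) and Nhs (1.73). These differences were over 1 log2 unit. The measure grows with the size of a rise, and U90926 was chosen for its rise, so they do not tell how closely other genes followed it. Gm1720 and 1700003M07Rik were close to each other (0.57), along with Raver2 and Vnn3, but with a pseudocount of 10 none of the 5 genes nearest to Gm1720 stayed among its nearest 5.

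For Neat1 the nearest were Lrrc8a (0.07), a subunit of volume-regulated anion channels, Nr6a1 (0.11), Prr3 (0.11), Gm32856 (0.12) and Pkn3 (0.12), and all 5 stayed with a pseudocount of 10. For Malat1 they were Traf3ip3 (0.08), Dcaf6 (0.08), Larp1b (0.08), Echdc1 (0.10) and Gm46430 (0.11), of which the first 3 stayed. The likeness is over 6 group means of 2 libraries each, and groups share scaling and base composition, so it describes pattern alone.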

How the data were processed

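RNA of 12 BMDM libraries was profiled by poly(A)-selected sequencing. The deposited values were whole-number read counts per Ensembl gene, made by the authors from reads mapped to mm10 and not scaled for depth or length. The submitters' processing notes name STAR 2.6.1d, Salmon 1.4.0, SAMtools 1.9, Picard 2.26 and MultiQC 1.11. Per the methods, reads were mapped with STAR and quantified with Salmon, whose estimates need not be whole. The strand setting and the treatment of multimapping reads were not given in the sources used here. The labels state paired reads and the methods single reads in triplicate, whereas 2 libraries per group were analysed. Between 65.2% and 67.9% of counts from 1 to 40 were even, a pattern left when both mates are counted. A second deposited column, gene length, was used for TPM.

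Symbols and positions came from GENCODE M21 (54165 of 54232 IDs). A gene entered the tests with 10 or more counts in 2 or more libraries. The tests used DESeq2 1.42.0 in R 4.3.3: a single fit of 6 group means over 12 libraries, median-of-ratios size factors, Wald tests and Benjamini-Hochberg adjustment over all genes of a comparison, two-sided, called under 0.05. Log2 fold changes are unshrunken, and intervals are 95% Wald intervals. Folds against a group at 0 were computed against 3 counts per library, which covers counting error only. Alternatives were edgeR 4.0.16 (quasi-likelihood, TMM), TMM and total-count scaling, other count filters, counts divided by 2, only the libraries compared, and each library left out. The fits were tested on simulated counts.

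The 5 transcripts, the gene lists and the tests were chosen with earlier results of these data known. Tests planned for U90926, Gm1720 and 1700003M07Rik that used a library behind their choice were replaced by descriptions. Named besides the 5 were the 5 genes most like each, tested genes within 200 kb that were called or had a mean of at least 100 counts, and, from each list, up to 4 per comparison with the smallest adjusted p and a mean of at least 100. List genes named beyond these (AW112010, Firre, Clk4, Srrm2, Mir155hg, Ptgs2os2, 9930111J21Rik1, Bvht, Gas5 and Snhg genes in some comparisons) were chosen after their values were seen. A few listed genes counted in the totals are not reported here by name. Marker lists of other cells gave summed levels of 96.6 to 195.7 CPM (neutrophil), 0.328 to 2.44 (T cell), 0.00 to 0.600 (B cell), 0.560 to 1.73 (dendritic cell) and 23.3 to 61.3 (fibroblast). Histone genes summed to 67.1 to 112.6 CPM and 10 RNAs without a poly(A) tail to 0.347 to 2.98 CPM. Analyses of figures and sequences used Python 3.11.15.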

Additional observations from a re-analysis of the deposited data

Results flagged for a closer look

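For Neat1 the effect of R788 differed between media by the DESeq2 interaction test. It differed in NB9464 TCM by −0.87 on the log2 scale from that without TCM and by −0.72 from that in NBT3L TCM, and both differences were also called by edgeR and in each of the 12 fits that left out 1 library. The R788 effect on U90926 was 0.81 higher in NB9464 TCM than in NBT3L TCM, with both libraries above the untreated ones in the first medium and both below in the second. This difference was not tested, since U90926 was chosen for its high level in the NBT3L TCM libraries that enter it.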

How the results depend on the processing

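With 2 libraries per group and near-zero counts of 3 transcripts without TCM, depth limits what can be said of R788 there. Of 31 tested values of the 5 transcripts, 24 kept direction and side of the threshold under every alternative that gave a value. Of 589 alternative values, 576 did. Among the 24 were the tests of U90926 and Gm1720 against R788, and that of 1700003M07Rik in NBT3L TCM + R788 against R788. These genes passed the count filter through TCM libraries alone, so holding in these tests adds no support beyond the counts. No paired analysis was possible because the library numbers do not recur across groups. The cause of the changes below was not tested, except where an alternative has fewer libraries or counts by its construction.

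For 1700003M07Rik with R788 in NBT3L TCM, leaving out a library gave 1.31 to 1.76. For Neat1 against R788, total-count scaling gave −0.27 and −0.32, and for NBT3L TCM against NS, a description, −0.12. For Malat1 the ranges were −0.52 to −0.29 with R788 in NB9464 TCM, −0.68 to −0.28 for NB9464 TCM + R788 against R788 and 0.33 to 0.56 between the media with R788. Its R788 effect in NB9464 TCM minus no TCM was called with total-count scaling (−0.54) and with a mean of at least 50 counts (−0.46), and was −0.64 to −0.23 with a library left out.

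With a minimum of 2-fold, genes called numbered 1860 (NB9464 TCM) and 1957 (NBT3L TCM) against NS, 806 for R788 without TCM, 343 for it in NB9464 TCM and 314 in NBT3L TCM, 2274 and 2236 for TCM + R788 against R788, 181 and 294 between the media without and with R788, and 383, 288 and 22 for the R788 effect in NB9464 TCM minus no TCM, NBT3L TCM minus no TCM and NB9464 TCM minus NBT3L TCM. That last count, 115 in the report, was 21 by edgeR, 272 with only the libraries compared and 46 to 234 with a library left out. With a library left out the others were 1432 to 2885 and 1173 to 2566 for R788 in NB9464 TCM and NBT3L TCM, 795 to 2007 and 852 to 1981 between the media, and 1344 to 2974 and 1038 to 2583 for the first 2 R788 differences. Of 456 counts of list genes, 105 moved by over 1.5 times.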
